A study of Mus musculus with 96 samples.

Results

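The renin-angiotensin system genes were followed across 96 mouse brain RNA-seq libraries. The 9 genes named were Agt, Ren1, Ace, Agtr1a, Agtr1b, Agtr2, Mas1, Enpep and Lnpep. Members were matched by gene symbol alone, with white space stripped, and were chosen with earlier results of these data known. Of the 9, 8 were matched among the 32594 rows of each count table, and Ren1, which encodes renin, was not analysed here.

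Angiotensinogen, the product of Agt, is the only known precursor of the angiotensins, and in brain it is made mainly by astrocytes. Renin cuts it to angiotensin I, which angiotensin-converting enzyme (Ace) turns into angiotensin II. Aminopeptidase A (Enpep) trims angiotensin II further, and the insulin-regulated aminopeptidase (Lnpep) is the binding site for the still shorter angiotensin IV. Angiotensin II signals through the type 1 receptor, which mice carry as Agtr1a and Agtr1b, and through the type 2 receptor Agtr2, whose effects often oppose those of type 1. Mas1 encodes Mas, the receptor for angiotensin-(1-7), and was first described as abundant in hippocampus and cortex.

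The study asked how traumatic brain injury and the angiotensin type 1 receptor blocker candesartan alter gene expression. Male C57BL/6 mice aged 8 to 10 weeks underwent controlled cortical impact (TBI) or a sham procedure with anaesthesia and a scalp incision but no craniectomy. They received candesartan (CD, 0.1 mg/kg) or vehicle (VH, saline with sodium carbonate). In the cohort killed at 3 days post-injury (dpi), injections were given at 6, 24 and 48 h. In the cohort killed at 29 dpi, 1 injection at 6 h was followed by an osmotic pump implanted at 24 h. The ipsilateral hippocampus, thalamus and hypothalamus were dissected, which gave 24 groups of 4 libraries, 4 treatments (Sham + VH, Sham + CD, TBI + VH, TBI + CD) in each of 3 regions at 2 time points. All groups shared the strain, sex and age range. For each group the 4 RNAs of highest quality were sequenced, and the replicate number in a label is not tied to a named mouse. The p-values therefore measure the spread between these libraries.

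Libraries held 17150610 to 31253784 counted reads at 3 dpi and 6663629 to 38589791 at 29 dpi. Levels are given as CPM, the reads of a gene relative to the library total after scaling by trimmed mean of M-values (TMM) factors. No library repeated another of its group. Marker lists matched the labelled regions: summed hippocampal neuron markers were 1122 to 1484 CPM in hippocampus and at most 628 CPM elsewhere, summed thalamic neuron markers were 1953 to 3961 CPM in thalamus and at most 790 CPM elsewhere, and summed hypothalamic neuron markers were 765 to 1299 CPM in hypothalamus and at most 372 CPM elsewhere. Some libraries stood apart by markers of choroid plexus epithelium, which makes cerebrospinal fluid in the ventricles beside the hippocampus. All 18 markers of that list were found and none was at 0 throughout. Ttr and Kl were its most abundant genes in hippocampus. The summed list passed 1000 CPM, a limit chosen after the values were seen, in 10 of 32 hippocampal, 6 of 32 thalamic and 0 of 32 hypothalamic libraries. At 3 dpi, 3 of the 4 hippocampal Sham + VH libraries were among them, against 0 of 4 TBI + VH, 0 of 4 Sham + CD and 1 of 4 TBI + CD libraries. Separately, 2 thalamic libraries at 29 dpi, Sham + VH replicate 3 and TBI + CD replicate 4, had raised levels of some hippocampal markers, as described with Mas1. These are bulk tissue values, so fewer cells of a type and less RNA per cell cannot be told apart.

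In the mm10 build, Agt lies on the minus strand of chromosome 8 (124556534 to 124569706) and Ace on the plus strand of chromosome 11 (105967945 to 105989964). Enpep is on the minus strand of chromosome 3 (129269175 to 129332720) and Lnpep on the minus strand of chromosome 17 (17521410 to 17625050). Mas1 is also on the minus strand of chromosome 17 (12841079 to 12868143), and Agtr2 is on the plus strand of chromosome X (21484544 to 21489164). The type 1 receptor genes are Agtr1a on the plus strand of chromosome 13 (30336441 to 30382867) and Agtr1b on the minus strand of chromosome 3 (20314473 to 20367177).

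The type 1 receptor genes are close copies, which bears on how far their counts can be separated. In GENCODE vM21 both coding sequences have 1077 bases, of which 978 (90.8%) are identical. Of 1003 windows of 75 bases, the length of 1 sequenced read, 0 were identical between the copies, and 103 differed at 2 bases or fewer. The median was 6 differing bases and the maximum 18. Exon bases outside the coding sequence were not compared. The closest windows, coding bases 60 to 134, differ at 1 base. That pair is printed to show how little can separate a read of Agtr1a from a read of Agtr1b at the closest place, with the differing base in capitals. The Agtr1a window is at chr13:30381013-30381087 on the plus strand and the Agtr1b window at chr3:20316307-20316381 on the minus strand, both printed 5′ to 3′ along the gene.
Agtr1a: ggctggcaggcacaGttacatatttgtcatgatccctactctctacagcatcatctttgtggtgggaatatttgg
Agtr1b: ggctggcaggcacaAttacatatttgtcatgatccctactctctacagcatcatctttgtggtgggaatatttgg
How the aligner shared reads over such windows was not tested, so the level of Agtr1b, the lower of the copies, is uncertain.

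**Figure D1:**
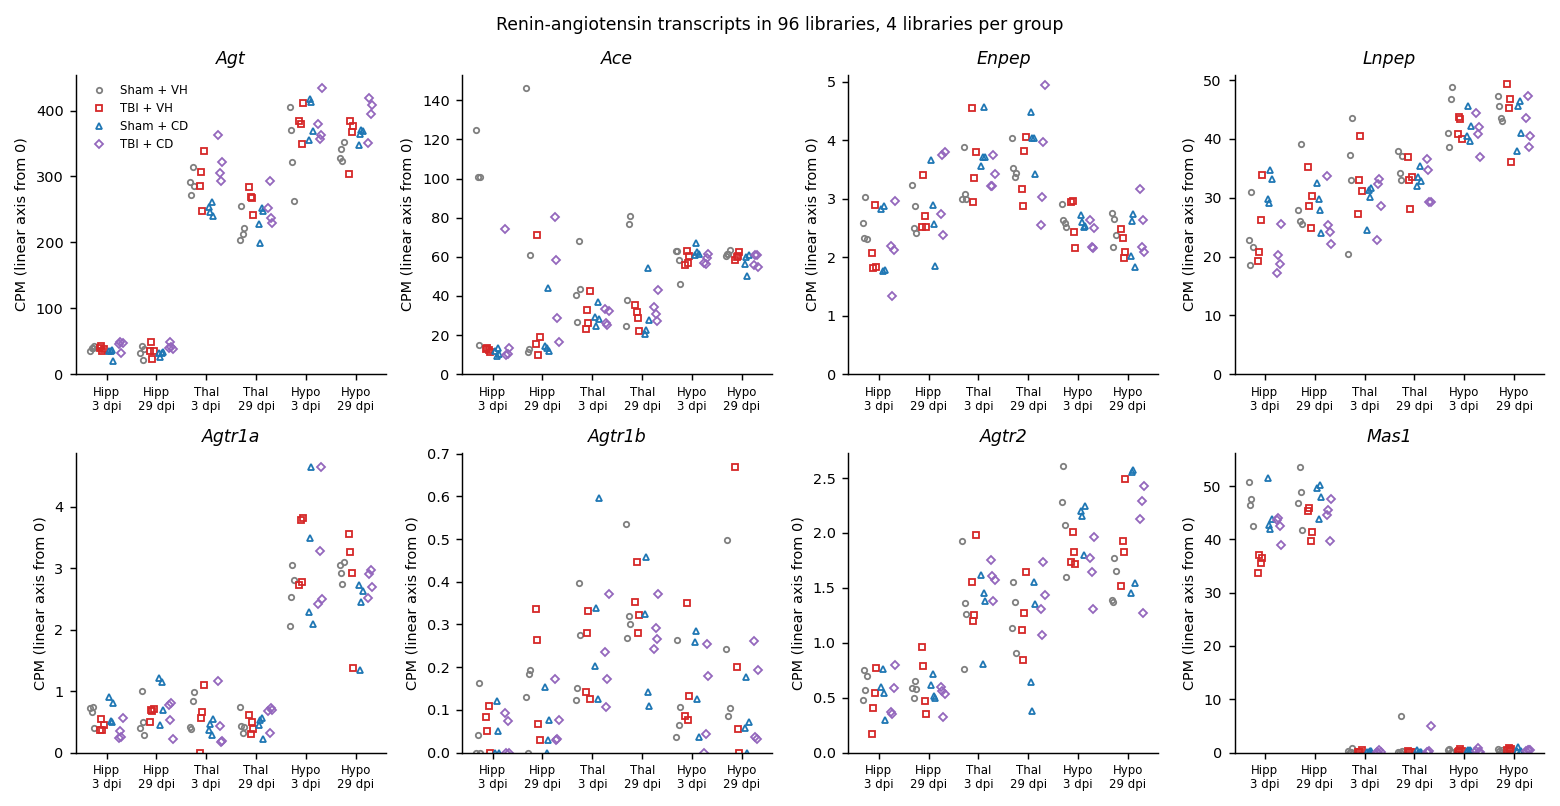
CPM of the 8 members in all 96 libraries, on linear axes from 0, with 1 marker per library, grouped by region and dpi and coloured by group (n = 4 libraries each). Agt is lowest in hippocampus, Mas1 is high there alone apart from 2 thalamic libraries, Agtr1a is highest in hypothalamus, and Ace is spread from 9.38 to 146 CPM in hippocampus.

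Compared per kilobase of exon, Agt was the highest member in the Sham + VH means of thalamus and hypothalamus at both time points. In Sham + VH at 3 dpi it stood at 20.8 ± 1.59 CPM per kb in hippocampus, 153.8 in thalamus and 180.0 in hypothalamus (mean, SD over n = 4 where given). In hippocampus the libraries of Agt overlapped those of Mas1 (17.9 ± 1.31) and Ace (16.1 ± 9.14), so these 3 could not be ranked. In thalamus (8.46 ± 3.22) and hypothalamus (10.9 ± 1.49 CPM per kb) Ace came second to Agt, with no overlap on either side. Lnpep came after Ace in the Sham + VH means of every region, at 1.66, 2.37 and 3.10 CPM per kb in hippocampus, thalamus and hypothalamus at 3 dpi. In hippocampus that order did not hold throughout. At 3 dpi Ace and Lnpep had means of 2.13 and 2.24 in Sham + CD and 2.36 and 1.77 in TBI + VH, with overlap in both. In TBI + CD they were 5.10 and 1.45, and in Sham + VH at 29 dpi they overlapped. Lnpep exceeded Enpep per kb in all 96 libraries. Receptor genes other than hippocampal Mas1 had means below Lnpep in every region.

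Within the receptors the order changed with the region. Per kb, Mas1 exceeded Agtr1a in 32 of 32 hippocampal libraries, 4 of 32 thalamic and 0 of 32 hypothalamic ones. Agtr1a exceeded Agtr2 in 19 of 32 hippocampal, 1 of 32 thalamic and 30 of 32 hypothalamic libraries. Agtr1a exceeded its copy Agtr1b in 32, 23 and 32 of the 32 libraries of hippocampus, thalamus and hypothalamus. In the Sham + VH order at 3 dpi, Agtr1a (0.227) and Agtr2 (0.188) were neighbours that overlapped in hippocampus. In thalamus Agtr2 (0.399), Agtr1a (0.234), Mas1 (0.126) and Agtr1b (0.110) each overlapped the next. In hypothalamus Agtr1a (0.938) overlapped Agtr2 (0.643), and Agtr2 overlapped Enpep (0.566 CPM per kb).

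Sequencing depth limits what can be read from the receptors. Over the 16 hippocampal libraries at 3 dpi, Agtr1a had 5 to 20 counted reads per library, Agtr2 4 to 21 and Agtr1b 0 to 4, whereas Mas1 had 736 to 1273. In hypothalamus at 3 dpi Agtr1a had 42 to 111 reads. A filter on low counts kept 6 members in all 6 sets of region and time. Mas1 passed in 4 sets (not in thalamus) and Agtr1b in 1 (thalamus at 29 dpi). Renin is present in C57BL/6 mice as Ren1, and that strain lacks Ren2. The row labelled Ren2 held 0 to 15 reads per library with a median of 1.

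Regions were compared within Sham + VH in 1 fit of the 48 libraries of each time point, with edgeR's quasi-likelihood test. The 48 libraries were treated as independent, although libraries of different regions may come from the same mice. The filter on low counts was applied over all groups of the fit, so a gene low in 1 region could still be tested there. A member was called when its false discovery rate (FDR, the Benjamini-Hochberg adjusted p over all genes tested) was under 0.05 and its log2 fold change exceeded 0.32 in size. These calls are read against a high background, because a large share of all genes differed between regions. At 3 dpi, hippocampus against thalamus gave 5 of 7 members (background 40.9% of genes), hippocampus against hypothalamus 5 of 7 (46.7%), and thalamus against hypothalamus 1 of 7 (28.6%). At 29 dpi the counts were 3 of 8 (39.3%), 5 of 8 (45%) and 4 of 8 (32.9%).

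Agt, the precursor, was lowest in hippocampus. At 3 dpi the 4 Sham + VH libraries held 35.2, 40.2, 39.7 and 42.3 CPM in hippocampus, 290.9, 272.3, 314.0 and 286.1 CPM in thalamus, and 405.7, 370.9, 321.4 and 263.3 CPM in hypothalamus. The hippocampal values did not overlap the others, while thalamus and hypothalamus overlapped. The hippocampal log2 fold change was -2.81 (SE 0.13, FDR = 2.54e-21) against thalamus and -2.92 (SE 0.14, FDR = 6.96e-22) against hypothalamus. At 29 dpi it was -2.69 (SE 0.15, FDR = 2.82e-19) and -3.20 (SE 0.15, FDR = 1.31e-21). Thalamus was below hypothalamus at 29 dpi (log2 fold change -0.51, SE 0.13, FDR = 0.00124), with values of 203.7 to 254.6 against 323.5 to 352.8 CPM. At 3 dpi that difference was -0.11 (FDR = 0.486). Over all 32 libraries per region, the lowest thalamic value of Agt (199.5 CPM) was above the highest hippocampal one (48.6 CPM). Summed astrocyte markers, with 11 of 12 found, did not follow that order. Over all 32 libraries per region they were 5151 to 11740 CPM in hippocampus, 4277 to 6294 in thalamus and 4333 to 5251 in hypothalamus. The hippocampal range includes injured libraries, in which these markers were higher. The part of astrocyte content in the Agt difference was not tested.

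Mas1, the receptor for angiotensin-(1-7), had the reverse pattern. The hippocampal Sham + VH libraries at 3 dpi held 50.8, 46.5, 47.6 and 42.5 CPM. The thalamic ones held 0.287, 0.0761, 0.132 and 0.828 CPM, and the hypothalamic ones 0.448, 0.756, 0.0319 and 0.142 CPM. Hippocampus thus stood far above both other regions, which overlapped each other. The hippocampal log2 fold change was 7.19 (SE 0.35, FDR = 3.09e-21) against thalamus and 7.31 (SE 0.34, FDR = 9.72e-22) against hypothalamus. Thalamic Mas1 was under the low-count filter of the fits within a region, at 0 to 21 reads per library at 3 dpi. Hypothalamic Mas1 had 1 to 20 reads, so the sizes of both folds are uncertain. Over both time points, the 32 hippocampal libraries ran from 33.7 to 53.6 CPM and the hypothalamic ones from 0.0319 to 0.992 CPM.

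In thalamus, 30 of 32 libraries held 0 to 0.828 CPM of Mas1. The other 2, Sham + VH replicate 3 (6.84 CPM) and TBI + CD replicate 4 (5.05 CPM), both at 29 dpi, stood apart. Genes of the hippocampal neuron list were raised in the same libraries. Neurod6, a transcription factor of excitatory forebrain neurons, was at 11.5 to 16.8 CPM there against 0.221 to 2.72 CPM in the other thalamic libraries. Lct was at 11.3 to 20.6 against 0 to 0.392 CPM, and Dsp at 18.7 to 29.3 against 0.464 to 3.83 CPM. These genes were picked after their values were seen, and the summed list of 10 hippocampal neuron genes ran from 465 to 628 CPM over all thalamic libraries. At 29 dpi Mas1 was called higher in hippocampus than in thalamus (log2 fold change 4.89, SE 0.56, FDR = 7.41e-10) and hypothalamus (7.13, SE 0.69, FDR = 6.17e-12). It was also called higher in thalamus than in hypothalamus (2.24, SE 0.88, FDR = 0.0329). Without thalamic Sham + VH replicate 3 that value was -0.57 (FDR = 0.682), and hippocampus stood above thalamus by 7.71 in place of 4.89. It was also lost without hypothalamic replicate 2 (2.19, FDR = 0.0543) or replicate 3 (1.87, FDR = 0.105), and with the choroid plexus covariate (1.92, FDR = 0.0718). In the other groups it was 1.68 (TBI + CD), -1.70 (TBI + VH) and -1.24 (Sham + CD), none of which passed.

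Agtr1a, which encodes the receptor type that candesartan blocks, was highest in hypothalamus. The Sham + VH libraries at 3 dpi held 2.05, 2.53, 3.06 and 2.80 CPM in hypothalamus, against 0.402 to 0.738 CPM in hippocampus and 0.380 to 0.986 CPM in thalamus. No hippocampal or thalamic value reached the hypothalamic ones. Against hypothalamus the log2 fold change was -1.86 for hippocampus (SE 0.41, FDR = 0.000125) and -1.88 for thalamus (SE 0.41, FDR = 0.000193). At 29 dpi the values were -2.40 (SE 0.34, FDR = 1.01e-07) and -2.49 (SE 0.32, FDR = 2.32e-08). Hippocampus and thalamus differed by 0.03 (SE 0.46) at 3 dpi and 0.09 (SE 0.39) at 29 dpi, with FDR = 0.967 and 0.870. Over both time points Agtr1a ran from 1.35 to 4.65 CPM in the 32 hypothalamic libraries, up to 1.22 CPM in hippocampus and up to 1.17 CPM in thalamus.

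Agtr2, the type 2 receptor gene, was lowest in hippocampus. At 3 dpi the Sham + VH libraries held 0.479, 0.749, 0.574 and 0.695 CPM in hippocampus, 1.92, 0.761, 1.37 and 1.26 CPM in thalamus and 2.28, 2.61, 2.07 and 1.60 CPM in hypothalamus. Hippocampus did not overlap the others, and thalamus overlapped hypothalamus. The hippocampal log2 fold change was -1.003 (SE 0.28, FDR = 0.00253) against thalamus and -1.58 (SE 0.27, FDR = 3.30e-06) against hypothalamus. At 29 dpi it was -0.94 (SE 0.32, FDR = 0.0123) and -1.21 (SE 0.32, FDR = 0.00111). In the Sham + CD libraries at 29 dpi the difference of Agtr2 from thalamus was -0.73 (FDR = 0.0508) and was not called. Thalamus against hypothalamus gave -0.58 (FDR = 0.0607) at 3 dpi. That difference passed without thalamic replicate 1 (-0.81, FDR = 0.0157) or hypothalamic replicate 4 (-0.69, FDR = 0.0338). Agtr1b held 0.280 CPM at the median of 32 thalamic libraries, against 0.0589 in hippocampus and 0.105 in hypothalamus. It entered the region tests at 29 dpi only, where its FDR was 0.151, 0.721 and 0.279.

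**Figure D2:**
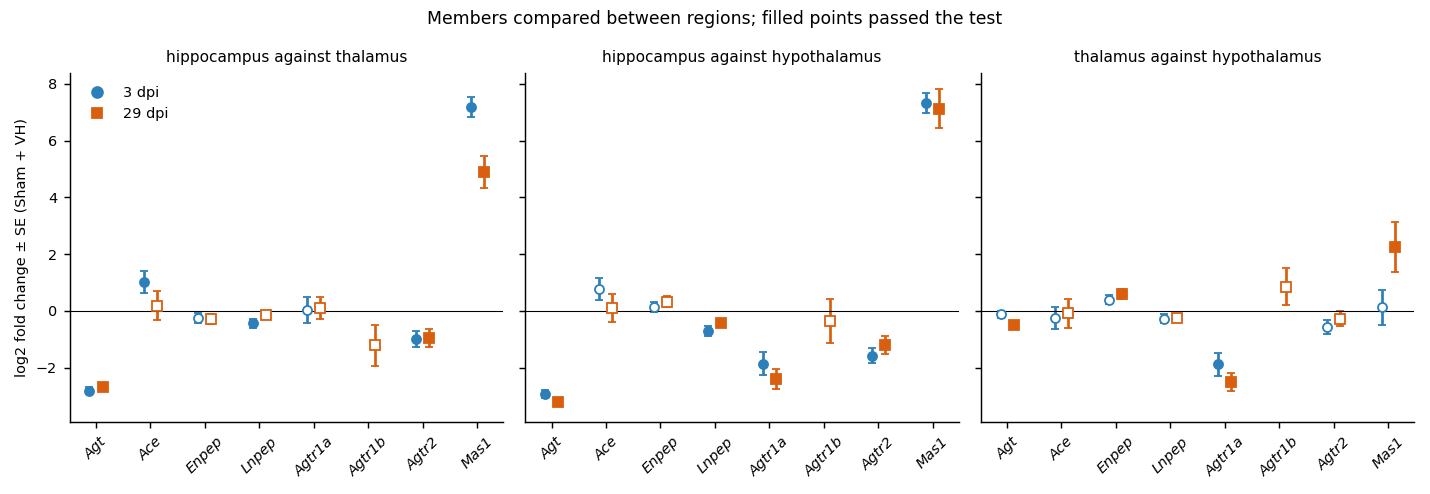
Log2 fold changes (± SE) of the members between regions in the Sham + VH libraries (n = 4 per region and time), with circles for 3 dpi and squares for 29 dpi, filled where the test was passed. Mas1 is 4.89 to 7.31 above 0 in hippocampus against either region, Agt is -3.20 to -2.69, and Agtr1a is -2.49 to -1.86 against hypothalamus.

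Differences in the peptidase genes Lnpep and Enpep were under 1 on the log2 scale. Lnpep was lower in hippocampus than in hypothalamus, with a log2 fold change of -0.71 (SE 0.16, FDR = 0.000197) at 3 dpi and -0.41 (SE 0.12, FDR = 0.00339) at 29 dpi. In the Sham + CD libraries the difference at 3 dpi was -0.21 (FDR = 0.268), which did not pass, and in the other groups -0.57 (TBI + VH) and -0.83 (TBI + CD). Its libraries at 3 dpi held 22.8, 18.6, 31.0 and 21.6 CPM in hippocampus and 41.0, 38.7, 46.8 and 48.9 CPM in hypothalamus, with no overlap. Against thalamus at 3 dpi it gave -0.44 (SE 0.16, FDR = 0.0197). That call was lost without hippocampal replicate 2 (-0.33, FDR = 0.103) or 4 (-0.39, FDR = 0.0623) or thalamic replicate 2 (-0.37, FDR = 0.0686) or 4 (-0.28, FDR = 0.160), with the choroid plexus covariate (-0.27, FDR = 0.169) and with only the 2 groups fitted (-0.43, FDR = 0.115). In the other groups the same contrast of Lnpep gave -0.35 (FDR = 0.0649) in TBI + VH, 0.20 (FDR = 0.301) in Sham + CD and -0.46 (FDR = 0.0153) in TBI + CD. Enpep was called once: thalamus was above hypothalamus at 29 dpi by 0.60 (SE 0.18, FDR = 0.00545), with 3.37 to 4.05 against 2.18 to 2.76 CPM. At 3 dpi the same difference was 0.40 (FDR = 0.0551), and without hypothalamic replicate 1 it passed (0.44, FDR = 0.0468). In the TBI + VH, Sham + CD and TBI + CD libraries at 3 dpi it passed at 0.60 to 0.69. Summed mural cell markers overlapped, at 157 to 263 CPM in thalamus and 156 to 233 CPM in hypothalamus, as did endothelial ones at 155 to 317 and 127 to 253 CPM. Oligodendrocyte markers were 6177 to 13180 CPM in thalamus and 3057 to 10371 CPM in hypothalamus.

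Ace did not keep a regional order. In Sham + VH at 3 dpi, hippocampus held 124.7, 100.9, 14.8 and 100.6 CPM, thalamus 40.7, 26.9, 67.9 and 43.4 CPM, and hypothalamus 63.0, 62.8, 58.2 and 46.2 CPM. The 3 high hippocampal libraries were those with high choroid plexus markers, and the fourth was below every thalamic and hypothalamic one. Hippocampus was called above thalamus (1.01, SE 0.39, FDR = 0.0272). In the other groups the same contrast gave -1.27 (FDR = 0.0104) in TBI + VH, -1.31 (FDR = 0.00909) in Sham + CD and -0.08 (FDR = 0.879) in TBI + CD. With summed choroid plexus markers as a covariate it was -0.10 (FDR = 0.811). The call for Ace was also lost with only the 2 groups fitted (1.01, FDR = 0.108) and, at values of 0.78 to 1.004, without hippocampal replicate 1, 2 or 4 or thalamic replicate 1, 2 or 4. Against hypothalamus hippocampal Ace gave 0.76 (FDR = 0.0889), and -0.99 (FDR = 0.0127) with the covariate. Without the low hippocampal replicate 3 it was 1.11 (FDR = 0.00485). In the other groups hippocampal Ace was called below hypothalamus, with log2 fold changes of -0.97 in TBI + CD (FDR = 0.0333), -2.07 in TBI + VH (FDR = 5.03e-05) and -2.29 in Sham + CD (FDR = 1.46e-05).

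Library by library, hippocampal Ace moved with the choroid plexus markers. The 10 hippocampal libraries with summed markers of 2424 to 7828 CPM held 44.3 to 146 CPM of Ace. The 22 others, with 35.3 to 611 CPM of markers, held 9.38 to 28.5 CPM, so the sets did not overlap. In thalamus the 6 libraries with high markers held 40.7 to 80.8 CPM and the 26 others 20.4 to 43.4 CPM. In hypothalamus Ace stayed between 46.2 and 67.2 CPM with markers of 91.6 to 289 CPM.

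**Figure D3:**
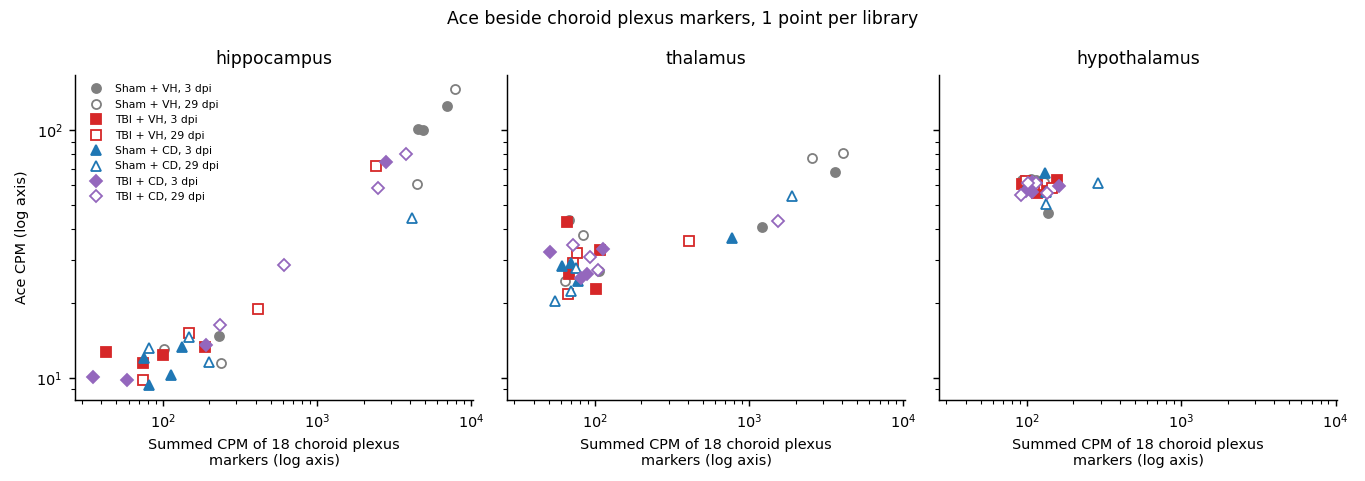
Ace CPM against the summed CPM of 18 choroid plexus epithelium markers, both on log axes, with 1 point per library and a panel per region (n = 32 each). Filled points are 3 dpi and open points 29 dpi. Hippocampal libraries fall into a cloud of low Ace and one of 44.3 to 146 CPM at high marker sums, while hypothalamic points stay together.

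Within regions, members were called in the hippocampus at 3 dpi alone. There injury was compared with sham in vehicle mice, where 2 of 7 members were called, both lower (background 10.7% of 16756 genes, 8.99% higher and 1.72% lower). Ace fell by 2.78 on the log2 scale (SE 0.61, FDR = 0.00441) and Mas1 fell by 0.39 (SE 0.07, FDR = 0.000783). The median log2 fold change was -0.38 over the 7 members and -0.01 over all genes. This comparison, that of candesartan in sham mice and that of TBI + CD with Sham + VH share the same 4 Sham + VH libraries.

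Mas1 was the steadier of the called pair. Sham + VH libraries held 50.8, 46.5, 47.6 and 42.5 CPM and TBI + VH libraries 33.7, 37.1, 35.6 and 36.5 CPM. Every injured library was below every sham one. The call was kept without any 1 library and with the choroid plexus covariate (-0.39, FDR = 0.0424). TBI + CD libraries held 43.6, 44.0, 42.5 and 38.9 CPM, above all TBI + VH ones. Candesartan in injured mice gave 0.24 by edgeR (SE 0.07, unadjusted p = 0.00303, FDR = 0.999), which did not pass. Sham + CD libraries held 51.5, 42.7, 42.0 and 43.9 CPM, and injury in candesartan mice gave -0.09. The test that the injury difference of Mas1 depended on the drug gave 0.30 by edgeR (unadjusted p = 0.00754, FDR = 0.189), so such a dependence was not shown. At 29 dpi injury in vehicle mice gave -0.15 for Mas1, with 41.8 to 53.6 CPM in Sham + VH and 39.7 to 45.9 CPM in TBI + VH.

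Markers of several cell types moved with injury at 3 dpi in the hippocampus. The summed list of 10 hippocampal neuron genes was 1327 to 1472 CPM in Sham + VH and 1188 to 1357 CPM in TBI + VH, and that of 10 general neuron genes was 7854 to 8274 and 6899 to 7480 CPM. Astrocyte markers went from 5151 to 6021 CPM in Sham + VH to 8764 to 10832 CPM in TBI + VH. Microglia markers, 10 genes, went from 318 to 348 CPM to 625 to 932 CPM, and 10 markers of other macrophages from 11.2 to 18.1 CPM to 38.8 to 144.5 CPM. Slc1a2 and Gfap were the most abundant astrocyte markers, Csf1r the most abundant microglia marker, and Lyz2 and Mrc1 led the macrophage list. Cpne7 and Neurod6 led the hippocampal neuron list and Snap25 and Syt1 the general one. In the candesartan groups the injured libraries stood apart from the sham ones in astrocyte (9482 to 11740 against 5332 to 5791 CPM), microglia (725 to 1026 against 314 to 349 CPM) and macrophage lists (63.2 to 162.3 against 9.58 to 13.7 CPM). The general neuron list was 6737 to 7845 CPM in TBI + CD and 8454 to 8790 CPM in Sham + CD. The part of these shifts in the members' values was not tested.

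Hippocampal Ace at 3 dpi was high in 3 of 4 Sham + VH libraries (124.7, 100.9 and 100.6 CPM) and low in the fourth (14.8 CPM). After injury, vehicle libraries held 12.7, 13.3, 12.4 and 11.5 CPM. Sham + CD libraries held 12.1, 9.38, 13.3 and 10.3 CPM, and TBI + CD libraries 74.4, 9.82, 10.1 and 13.5 CPM. All TBI + VH and Sham + CD values were below all Sham + VH values, though the fourth sham library was close to them. Summed choroid plexus markers, of which 18 of 18 were found, ran from 230 to 6908 CPM in Sham + VH and from 42.8 to 188 CPM in TBI + VH. They ran from 75.8 to 133 CPM in Sham + CD, and TBI + CD libraries lay at 35.3 to 2814.5 CPM. With them as a covariate the log2 fold change of Ace on injury was 0.04 (FDR = 0.974) in place of -2.78. The markers differed between the groups compared, so this fit cannot separate them from injury. Endothelium is another site of Ace, and its 12 summed markers were at 178 to 255 CPM in Sham + VH, against 188 to 253 CPM after injury. Which cell type the Ace difference came from was not tested. Summed markers of motile cilia and ependyma (10 of 10 found) were 55.5 to 75.9 CPM in Sham + VH and 19.4 to 43.5 CPM in Sham + CD, with no overlap, and 47.1 to 66.8 CPM in TBI + VH. Those of meningeal fibroblasts overlapped in all 4 groups, at 71.9 to 201 CPM.

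Candesartan in sham mice, at 3 dpi in hippocampus, gave 1 called member of 7 (background 1.5% of genes, 0.0836% higher and 1.41% lower). Ace fell by 2.92 (SE 0.62, FDR = 0.0286). With the choroid plexus covariate the value was -0.21 (FDR = 0.860). The call was also lost without Sham + VH replicate 1, 2 or 4 or any 1 of the Sham + CD libraries, at values of -3.01 to -2.68 and FDR of 0.0631 to 0.115. The other 6 members gave -0.29 to 0.43, of which Lnpep (0.43) had an unadjusted p of 0.0205 and an FDR of 0.225.

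Injury with candesartan against Sham + VH gave 0 of 7 members by edgeR and 0 of 8 by DESeq2, with 3 by each tool at an unadjusted p under 0.05 (edgeR background 12.1%, 10.3% higher and 1.86% lower). By edgeR the 3 were Ace (-1.68, SE 0.58, FDR = 0.0541), Agtr1a (-0.82, FDR = 0.0931) and Mas1 (-0.15, FDR = 0.160). Without TBI + CD replicate 1, the library with 74.4 CPM of Ace, Ace gave -2.93 (FDR = 0.000211), and without Sham + VH replicate 3 it gave -2.03 (FDR = 0.00797). Ace was also called by edgeR with the replicate number as a block (-1.87, FDR = 0.0207) and with no filter on low counts (-1.68, FDR = 0.0417). Without TBI + CD replicate 4, Agtr1a gave -1.12 (FDR = 0.0385). With the choroid plexus covariate Ace gave 0.0041 (FDR = 0.996). Candesartan in injured mice gave 0 of 7 members by edgeR and 0 of 8 by DESeq2 (background 0% by both), with 1 member, Mas1, at an unadjusted p under 0.05 by edgeR and 1 by DESeq2.

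**Figure D4:**
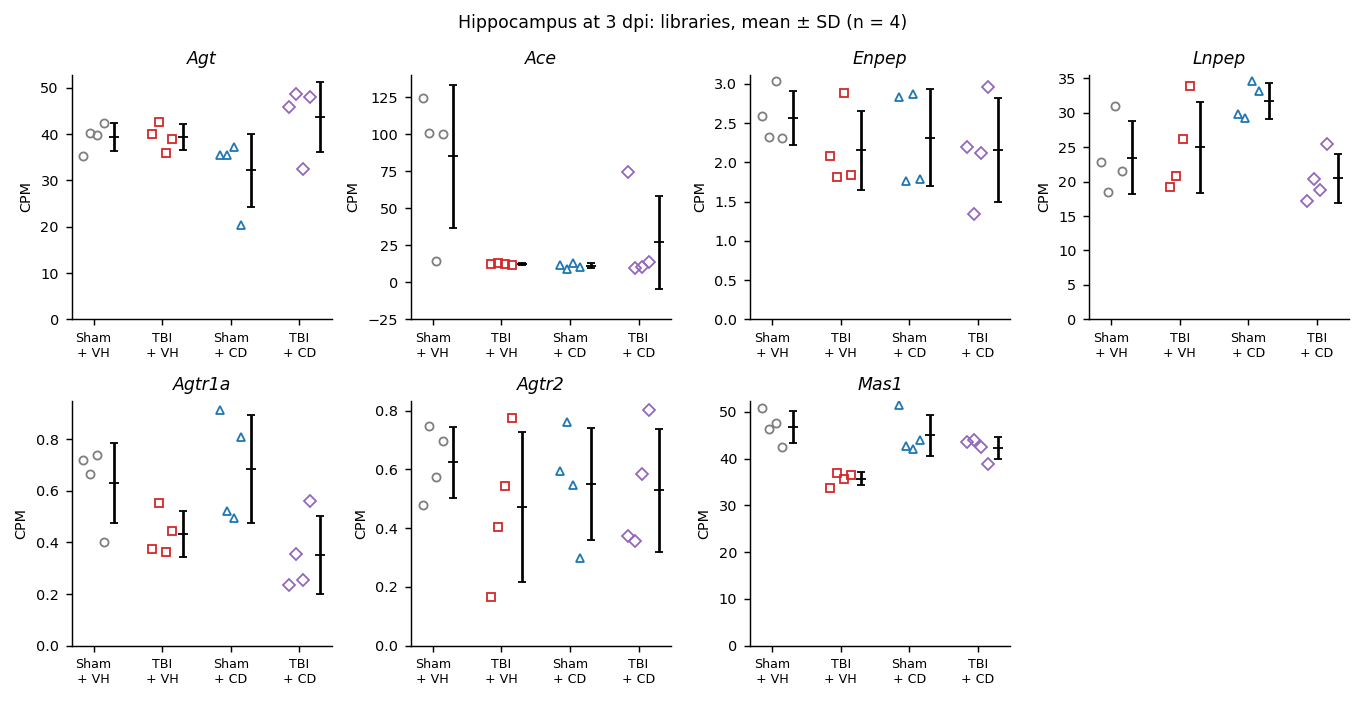
CPM of the 7 members tested in hippocampus at 3 dpi, with 1 marker per library and the mean ± SD of each group (n = 4). Mas1 is lower in all TBI + VH libraries than in all Sham + VH ones, Ace is at 9.38 to 14.8 CPM except in 3 Sham + VH libraries and 1 TBI + CD library, and Lnpep is higher in all Sham + CD libraries than in all TBI + CD ones.

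Injury within the candesartan-treated mice, a comparison that shares no library with the vehicle comparison, gave 3 of 7 members in hippocampus at 3 dpi (background 20.1% of genes, 14.4% higher and 5.67% lower). Agt rose by 0.44 (SE 0.15, FDR = 0.0311), Agtr1a fell by 0.95 (SE 0.32, FDR = 0.0316) and Lnpep fell by 0.63 (SE 0.17, FDR = 0.00887).

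Lnpep, the angiotensin IV binding aminopeptidase, separated the groups. Sham + CD libraries held 29.8, 29.2, 34.7 and 33.1 CPM and TBI + CD libraries 17.2, 20.4, 18.8 and 25.5 CPM. The groups did not overlap, and the call was kept without any 1 library. In the vehicle groups Lnpep overlapped, with 22.8, 18.6, 31.0 and 21.6 CPM in Sham + VH and 19.2, 20.7, 26.1 and 33.9 CPM in TBI + VH (log2 fold change 0.10). The drug dependence of the injury difference was -0.72 by edgeR (unadjusted p = 0.00793, FDR = 0.193) and was not called. Without Sham + VH replicate 3 it was -0.88 (FDR = 0.0470).

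Agt held 35.6, 35.4, 37.3 and 20.4 CPM in Sham + CD and 45.8, 48.6, 32.5 and 48.1 CPM in TBI + CD. The groups overlapped through TBI + CD replicate 3 alone, and Sham + CD replicate 4 was the lowest of all. Without Sham + CD replicate 4 the change of Agt was 0.28 (FDR = 0.0766), and the call was also lost without TBI + CD replicate 1 (0.42, FDR = 0.0649), 2 (0.39, FDR = 0.0798) or 4 (0.42, FDR = 0.0649), and with only the 2 groups fitted (0.45, FDR = 0.0794). In vehicle mice Agt was 35.2 to 42.3 CPM in Sham + VH and 36.0 to 42.6 CPM in TBI + VH, so that the fold change on the log2 scale was -0.0012 (SE 0.15), while astrocyte markers did not overlap between those groups.

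Agtr1a held 0.912, 0.521, 0.496 and 0.810 CPM in Sham + CD and 0.233, 0.355, 0.256 and 0.561 CPM in TBI + CD. The groups overlapped through TBI + CD replicate 4. These are 5 to 20 reads per library, and DESeq2 gave an FDR of 0.0610. With only the 2 groups fitted, edgeR gave 0.0626. The call for Agtr1a was lost without Sham + CD replicate 1 (-0.78, FDR = 0.0968) or 4 (-0.86, FDR = 0.0885) or TBI + CD replicate 1 (-0.81, FDR = 0.0851), 2 (-0.95, FDR = 0.0564) or 3 (-0.80, FDR = 0.105). In vehicle mice the libraries held 0.718, 0.665, 0.738 and 0.402 CPM in Sham + VH and 0.375, 0.554, 0.361 and 0.442 CPM in TBI + VH, with a change of -0.55 (FDR = 0.304). The remaining members, Agtr2 at 0.167 to 0.801 CPM and Enpep at 1.34 to 3.03 CPM over the 16 libraries, were called in no comparison within hippocampus at 3 dpi. Enpep is known from pericytes, and 12 summed mural cell markers lay at 163 to 258 CPM in those libraries.

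The interaction test over all members at 3 dpi in hippocampus called 0 of 7 with edgeR (background 0%), with 3 at an unadjusted p under 0.05, and 1 of 8 with DESeq2, which called 1.73% of the genes it gave an adjusted p (1.29% higher and 0.435% lower). The called gene was Ace, at 4.02 (SE 0.87, FDR = 0.0622) by edgeR and 4.04 (FDR = 0.00495) by DESeq2. With the choroid plexus covariate it was 0.17 (FDR = 0.940). By edgeR it passed with no filter on low counts (4.03, FDR = 0.0269), and without Sham + VH replicate 3 (4.38, FDR = 0.00300), TBI + CD replicate 2 (4.30, FDR = 0.0326) or TBI + CD replicate 3 (4.32, FDR = 0.0411).

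In the other 5 sets of region and time, 0 of 204 member tests over 30 comparisons were called by edgeR. In those comparisons 0% to 0.529% of all genes were called, 12 member tests had an unadjusted p under 0.05, and DESeq2 called 1 of 240. That 1 was Agt in thalamus at 3 dpi for injury in candesartan mice, where 0.179% of all genes were called by edgeR (0.167% higher and 0.0119% lower) and 0.384% by DESeq2 (0.364% higher). Sham + CD libraries held 253.1, 246.2, 261.1 and 239.4 CPM and TBI + CD libraries 362.9, 304.9, 292.7 and 322.1 CPM. The groups did not overlap. The edgeR change was 0.36 (SE 0.08, unadjusted p = 0.000551, FDR = 0.127), and the DESeq2 FDR was 0.0156. All 4 Sham + CD values were also below the Sham + VH ones (272.3 to 314.0 CPM), with an edgeR change of -0.22 (unadjusted p = 0.0189, FDR = 0.649). TBI + VH libraries held 285.9, 307.4, 247.1 and 338.3 CPM, across the range of the other groups. The interaction for Agt there was 0.34 by edgeR (unadjusted p = 0.0110).

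Of the 12 member tests at an unadjusted p under 0.05, 5 were Ace in thalamus. Against the Sham + VH libraries, Ace gave -0.52 in TBI + VH, -0.61 in TBI + CD and -0.59 in Sham + CD at 3 dpi, and -0.90 in TBI + VH and -0.80 in Sham + CD at 29 dpi. At each time 2 of the 4 thalamic Sham + VH libraries had choroid plexus markers above 1000 CPM, against 0 of 4 in TBI + VH. Sham + CD and TBI + CD each had 0 of 4 at 3 dpi and 1 of 4 at 29 dpi. With these markers as a covariate the 5 values of Ace were -0.20, -0.28, -0.35, -0.29 and -0.40 in the same order. The remaining member was Agtr2 in hypothalamus at 3 dpi, at -0.36 for TBI + CD against Sham + VH by edgeR (unadjusted p = 0.0439).

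At 29 dpi Agt reached an unadjusted p under 0.05 in 3 comparisons and was called in none. In hippocampus Sham + CD libraries held 32.2, 26.9, 32.1 and 33.2 CPM and TBI + CD libraries 39.7, 48.5, 40.9 and 38.6 CPM, with no overlap. The edgeR change was 0.44 (unadjusted p = 0.0355, FDR = 0.452). In hypothalamus TBI + CD held 350.6 to 419.3 CPM and Sham + VH 323.5 to 352.8 CPM (0.22 by edgeR, unadjusted p = 0.00413, FDR = 0.9996). In thalamus TBI + VH held 241.7 to 283.4 CPM and Sham + VH 203.7 to 254.6 CPM (0.25 by edgeR, unadjusted p = 0.0148, FDR = 0.99999).

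Hippocampal Ace at 29 dpi was uneven in every group. Sham + VH libraries held 146.3, 11.5, 13.1 and 60.9 CPM, TBI + VH 15.2, 71.4, 9.85 and 19.1 CPM, Sham + CD 14.7, 13.3, 44.3 and 11.6 CPM, and TBI + CD 80.5, 58.6, 28.5 and 16.4 CPM. All groups overlapped. The libraries above 40 CPM were the 6 with choroid plexus markers over 1000 CPM, with 2 each from Sham + VH and TBI + CD and 1 each from the remaining groups. In hypothalamus, where the receptor target of candesartan was highest, the log2 fold changes of Agtr1a ran from -0.38 to 0.39 over the 12 comparisons at both time points, the interactions included, and none was called. At 29 dpi all 4 Sham + CD libraries of Agtr1a, at 2.72, 1.35, 2.46 and 2.63 CPM, were below the Sham + VH ones, at 3.06, 2.93, 2.74 and 3.11 CPM. The edgeR change was -0.38 (SE 0.24, unadjusted p = 0.138, FDR = 0.497), and the highest Sham + CD library was close to the lowest Sham + VH one.

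**Figure D5:**
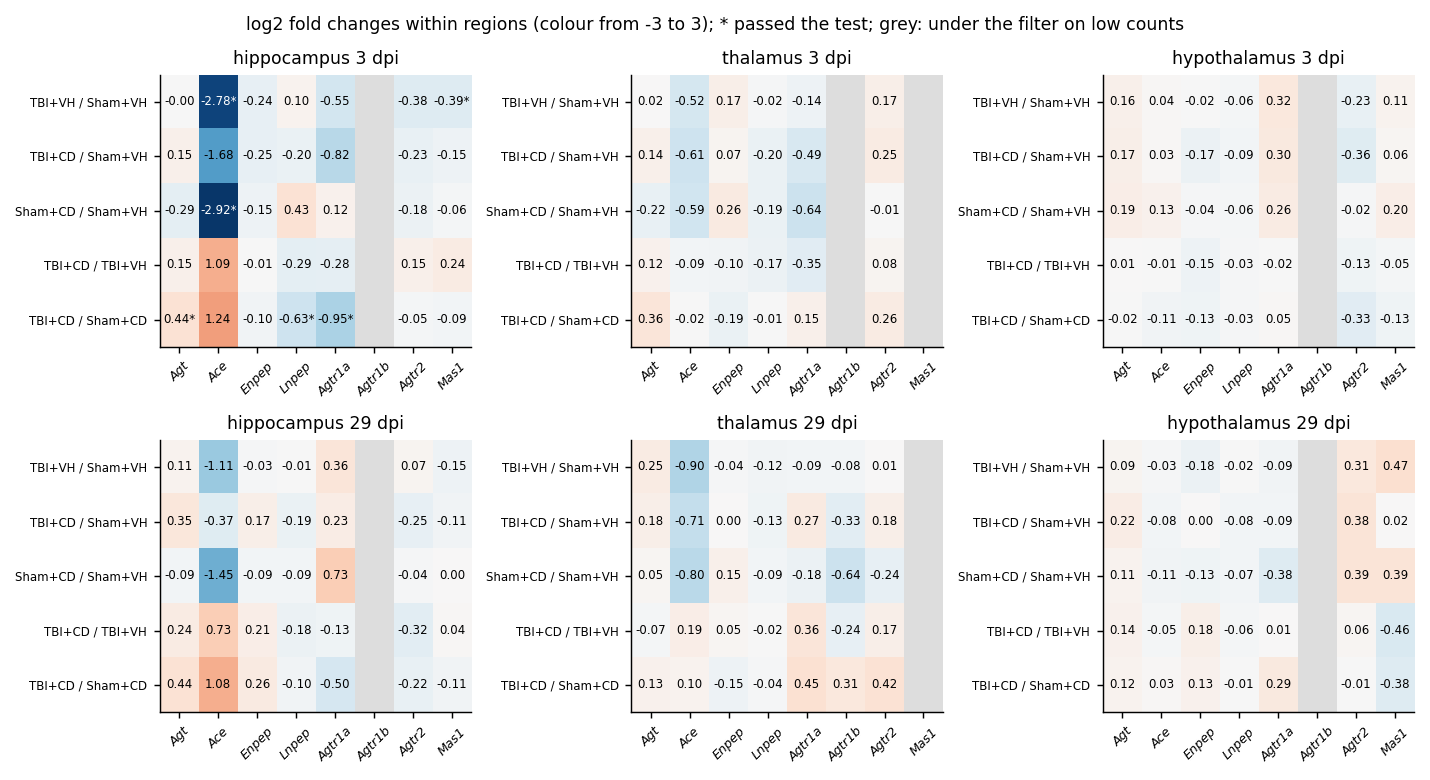
Log2 fold changes of the members for 5 comparisons in each region and time (4 libraries per group), coloured from -3 (blue) to 3 (red), with an asterisk where the test was passed and grey where a member was under the filter. The 6 asterisks are all in hippocampus at 3 dpi, on Ace (2 comparisons), Mas1, Agt, Lnpep and Agtr1a.

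The rest of the pathway was counted from a list of 21 further genes, of which 13 were tested in hippocampus at 3 dpi. Injury in vehicle mice gave 5 higher and 0 lower (background 8.99% and 1.72% of all genes), and injury with candesartan against Sham + VH gave 5 higher and 0 lower (10.3% and 1.86%). Injury in candesartan mice gave 4 higher and 1 lower (14.4% and 5.67%), and candesartan in sham mice 0 higher and 1 lower (0.0836% and 1.41%). The called genes were Agtrap, Arap1, Ctsa, Nln, Prcp and Mme. The list's median log2 fold change on injury in vehicle mice was 0.14, against -0.01 over all genes. In the other 5 sets, edgeR called 0 of 402 tests on this list and DESeq2 0 of 600, although 25 and 34 of those had an unadjusted p below 0.05. Between regions, 4 to 6 of 14 to 16 tested genes of this list were called in each of the 6 comparisons, where 28.6% to 46.7% of all genes were called.

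Agtrap, whose product binds the type 1 receptor and promotes its internalization, held 14.5, 12.7, 10.2 and 14.5 CPM in Sham + VH and 18.1, 14.4, 19.5 and 17.1 CPM in TBI + VH. The groups overlapped through TBI + VH replicate 2 alone. It rose by 0.42 (SE 0.11, FDR = 0.0181). In Sham + CD it was lower, at 10.2, 8.58, 8.43 and 9.03 CPM (-0.52, SE 0.12, FDR = 0.0339). From there to TBI + CD (17.2, 18.3, 20.9 and 19.2 CPM) it rose by 1.06 (SE 0.12, FDR = 3.38e-06). The interaction for Agtrap was 0.65 (FDR = 0.0864) by edgeR and 0.65 (FDR = 0.0145) by DESeq2. The call on injury in vehicle mice was lost without Sham + VH replicate 3 (0.32, FDR = 0.0511) or TBI + VH replicate 1 (0.40, FDR = 0.0509) or 3 (0.35, FDR = 0.0721). That on candesartan in sham mice was lost without Sham + VH replicate 1, 2 or 4 or any 1 Sham + CD library (-0.58 to -0.46, FDR of 0.0573 to 0.141). With the choroid plexus covariate the values for Agtrap were -0.49 (FDR = 0.696) for candesartan in sham mice and 0.44 (FDR = 0.205) for injury in vehicle mice. These stayed near the values without it, -0.52 and 0.42. The markers differed between the groups compared, so these fits cannot separate them from the group difference.

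Arap1, a regulator of small GTPases, rose by 0.73 (FDR = 0.0001) on injury in vehicle mice and by 0.88 (FDR = 1.04e-05) in candesartan mice. Its libraries held 18.5 to 20.7 CPM in Sham + VH and 30.3 to 36.4 CPM in TBI + VH, with no overlap. Ctsa, cathepsin A, a lysosomal carboxypeptidase that can act on angiotensin I, held 104 to 120 CPM in Sham + VH and 140 to 186 CPM in TBI + VH. It rose by 0.57 (FDR = 5.79e-05), and by 0.79 (FDR = 1.33e-06) in candesartan mice. Prcp, a lysosomal prolylcarboxypeptidase that can cleave angiotensin II to angiotensin-(1-7), held 5.63 to 6.51 and 7.80 to 11.99 CPM and rose by 0.74 (FDR = 0.0002). Both lysosomal genes rose beside the microglia and macrophage markers given above, whose part in this was not tested.

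Nln, neurolysin, a peptidase that can make angiotensin-(1-7), rose by 0.41 (FDR = 0.00676) on injury in vehicle mice and was at 23.2 to 26.0 CPM in Sham + VH and 27.4 to 36.2 CPM in TBI + VH. With the choroid plexus covariate Nln gave 0.28 (FDR = 0.355). Against Sham + VH, TBI + CD gave 0.34 (FDR = 0.0211), which was lost without Sham + VH replicate 1 (0.31, FDR = 0.0653) or TBI + CD replicate 3 (0.29, FDR = 0.0684) or 4 (0.30, FDR = 0.0587). Mme, neprilysin, another angiotensin-(1-7) forming peptidase, fell by 0.47 in candesartan mice (SE 0.13, FDR = 0.00879). It held 5.98 to 7.71 CPM in Sham + CD and 4.09 to 5.73 CPM in TBI + CD, with no overlap.

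The genes whose levels ran most like each member were listed for the 6 members that passed the filter in every set, among 15951 genes. Pearson's r of log2 CPM is given as a description, first over the 24 group means, which share regions and so carry the regional order. Agt ran most like Pcbd1, Dusp26 and Timp2 (each r = 0.996). Ace ran most like Clic6 (0.965), Prlr (0.961) and Perp (0.957), and Clic6 and Prlr are in the choroid plexus list. Agtr1a was nearest to Golgb1 (0.988), Nxf1 (0.983) and Astn1 (0.981). Agtr2 was nearest to Zwint (0.978), Grb10 (0.977) and Ubap1l (0.976). Enpep was nearest to Adrbk2 (0.950), Strbp (0.934) and Arhgap32 (0.933), and Lnpep to Ube3a (0.982), Kidins220 (0.981) and Kmt2c (0.978).

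A second likeness was taken over the 96 libraries after the mean of each region and time was subtracted, so that it reflects what libraries of 1 dissection share, depth and tissue content included. For Ace it gave Col8a1 (0.963), Slc2a12 (0.937) and Rdh5 (0.927). For Lnpep it gave Usp9x (0.873) and Ube3a (0.831), so Ube3a, a ubiquitin ligase, was near Lnpep by both measures. For Agt it gave Fads2 (0.688), 2310022B05Rik (0.672) and Sparc (0.652). Enpep stood nearest to Adgrf5 (0.517), Slco1a4 (0.49999), a transporter of brain endothelium, and Itm2a (0.459). The low receptor genes had weaker values, with 0.510 for Agtr1a and AK147121 and 0.475 for Agtr2 and Arnt2 as the highest.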

How the data were processed

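The count tables, 1 per time point, were deposited as raw counts of reads per gene symbol. Per the study's methods, the authors sequenced stranded mRNA libraries with 75-base paired-end reads, aligned them with MapSplice to mm10 and counted with HTSeq 0.9.1. Their own comparisons used DESeq2 1.16.1 and were not used here. Every column was matched to a sample by its name. Symbols were stripped of white space (214 had some), and the 63 symbols then present in 2 rows included no gene of the lists.

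Counts were tested in R 4.3.3 with edgeR 4.0.16 (filterByExpr, TMM factors, quasi-likelihood F test, Benjamini-Hochberg adjustment over all genes tested). Each region and time was fitted on its 16 libraries. Regions were compared in 48-library fits of 1 time point. Time points were not tested against each other, since treatment schedules differed. Log2 CPM used a prior count of 2. The fits were tested on simulated data. The members and lists, 13 marker lists and 21 further pathway genes among them, were chosen with earlier results of these data known. All members are named, with further pathway genes where called within a region. For each member passing the filter everywhere, the 3 most alike genes by each measure are listed, apart from 1 that is not reported here.

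Alternatives were DESeq2 1.42.0, its size factors (RLE), no filter on low counts, no fold threshold, a fit of the compared groups alone, a block for replicate number, summed choroid plexus markers as a covariate, and leaving out each library. The covariate in region comparisons and the same region comparisons in the other 3 groups were added after seeing the data. Where choroid plexus markers differed between groups, as in hippocampus at 3 dpi, a fit with that covariate cannot separate the markers from the group. Python 3.11.15 made summaries. Gene positions, lengths and coding sequences came from GENCODE vM21 (mm10).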

Additional observations from a re-analysis of the deposited data

Results flagged for a closer look

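Of 164 groups of 4 libraries in which a member passed the filter, 10 held a library whose gap to the nearest other exceeded Dixon's 95% critical share of the range, and chance alone flags about 5% of groups. Ace gave 3 of them, each in a hippocampal library with choroid plexus markers above 1000 CPM: 74.4 CPM in TBI + CD replicate 1 at 3 dpi (the others 9.82 to 13.5), 71.4 CPM in TBI + VH replicate 2 at 29 dpi (9.85 to 19.1) and 44.3 CPM in Sham + CD replicate 3 at 29 dpi (11.6 to 14.7).

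Agt was low in 2 hippocampal Sham + CD libraries, at 20.4 CPM in replicate 4 at 3 dpi (the others 35.4 to 37.3) and 26.9 CPM in replicate 2 at 29 dpi (32.1 to 33.2). Enpep was high in 2 thalamic libraries at 3 dpi, at 3.88 CPM in Sham + VH replicate 2 (2.99 to 3.08) and 4.57 CPM in Sham + CD replicate 3 (3.56 to 3.72). Lnpep was at 39.2 CPM in hippocampal Sham + VH replicate 3 at 29 dpi (25.6 to 27.9). Agtr1a was low at 29 dpi in hippocampal TBI + VH replicate 1, at 0.503 CPM (0.675 to 0.704), and in thalamic TBI + CD replicate 2, at 0.325 CPM (0.676 to 0.719).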

How the results depend on the processing

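The main moves in counts of called members are given here. In hippocampus at 3 dpi, the choroid plexus covariate took injury in vehicle mice from 2 members to 1 and candesartan in sham mice from 1 to 0. Injury with candesartan against vehicle sham went from 0 to 1 with no filter on low counts and to 1 with the replicate block. Injury in candesartan mice went from 3 to 1 with only the groups compared and to 2 with DESeq2. The interaction went from 0 to 1 with DESeq2 and with no filter. Injury in candesartan mice went from 0 to 1 in thalamus at 3 dpi with DESeq2 and in hippocampus at 29 dpi with only the groups compared. Hippocampus against thalamus at 3 dpi went from 5 to 3 with the covariate and with only the groups compared, and to 6 with DESeq2. At 29 dpi it went from 3 to 5 in Sham + CD libraries. Thalamus against hypothalamus at 3 dpi went from 1 to 2 with DESeq2, the replicate block, the covariate, TBI + VH or TBI + CD libraries, and to 5 in Sham + CD libraries. The cause of these moves was not tested.

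Leaving out 1 library gave 0 to 1 members for injury with candesartan against vehicle sham, 0 to 1 for candesartan in sham mice, 1 to 3 for injury in candesartan mice and 0 to 2 for the interaction in hippocampus at 3 dpi. It gave 3 to 5 for hippocampus against thalamus, 5 to 6 for hippocampus against hypothalamus and 1 to 2 for thalamus against hypothalamus at 3 dpi. At 29 dpi it gave 3 to 4 for hippocampus against thalamus and 3 to 4 for thalamus against hypothalamus.

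Signs turned for Ace with the covariate, to 0.040 for injury in vehicle mice, 0.0041 for injury with candesartan against vehicle sham and -0.10 for hippocampus against thalamus at 3 dpi. That last contrast in the other groups was -1.31 (Sham + CD), -1.27 (TBI + VH) and -0.081 (TBI + CD). Lnpep there was 0.20 in Sham + CD. Mas1 in thalamus against hypothalamus at 29 dpi was -1.70 in TBI + VH and -1.24 in Sham + CD, and -0.57 to 2.90 with 1 library left out. Ace in hippocampus against hypothalamus at 3 dpi, not called at 0.76, was -0.99 with the covariate, -0.97 in TBI + CD, -2.07 in TBI + VH and -2.29 in Sham + CD. Of 274 log2 fold changes under alternatives, 244 kept direction and call, 12 lost the call, 5 gained it and 13 turned sign. Of 352 with 1 library left out, 317 kept both, 28 lost the call, 6 gained it and 1 turned.

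Replicate numbers were not taken as pairs, because the labels do not tie them to a named mouse. Same-numbered libraries of different groups correlated above 0.1 in 65 of 144 pairs (-0.63 to 0.75), and of different regions in 40 of 96. Between regions, the mean correlation was 0.018 to 0.154 for the same number and -0.051 to -0.006 for other numbers. Between groups it was 0.008 to 0.152 and -0.052 to -0.002. Same-numbered libraries were thus more alike on average in every set, which the main fits did not model and whose cause was not tested. Whether same-numbered libraries of different regions share a mouse is not known. Depth limits the receptors most: Agtr1b had 0 to 22 reads per library in hypothalamus and 0 to 8 in hippocampus at 29 dpi.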
